A study of Mus musculus with 48 samples.

Results

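The 10 genes described here belong to the machinery that cuts and protects the extracellular matrix: the tissue inhibitors of metalloproteinases Timp1, Timp2 and Timp3, the matrix metalloproteinases Mmp2, Mmp3, Mmp12, Mmp14 and Mmp19, and the aggrecan-cleaving proteases Adamts1 and Adamts4. They were chosen by name and found by their Ensembl identifiers, 10 of the 46983 genes in the count tables, and all 10 were among the 19970 genes with more than 10 counts over all libraries that were tested. RNA came from brain tissue, given in the labels as the injured cortical region, of 3-month-old male C57Black/6 mice in 48 libraries of 11 groups. In the MCAO groups the middle cerebral artery was coagulated and cut, which closes it for good and leaves small infarcts in the parietal cortex. Sham mice went through the same surgery without coagulation, and controls gave intact cortex. MCAO and sham tissue was taken at 3 h, 12 h, 24 h, day 3 and day 7, with 4 sham libraries at each time, 5 MCAO libraries at each time but 24 h (4 libraries), and 4 control libraries. Each library is a sample named by its group and a letter. The tissue held affected and unaffected brain together, so that a transcript level averages over both. How much of the hemisphere was taken is described differently in the labels and in the study's methods and text, from a cortical region to most of the hemisphere, so the cortex is stated here only as labeled. Libraries held 1522670 to 2826740 counts on genes, with a median of 1935860.

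Matrix metalloproteinases are zinc enzymes made as inactive proenzymes. They cut collagens, laminins, proteoglycans and the tight junctions of vessels, and in the ischemic brain they are known for opening the blood-brain barrier early and for remodeling vessels and scar later. TIMP proteins bind the active site of these enzymes and block it. TIMP-3 also blocks ADAMTS enzymes, and TIMP-2 together with the membrane-bound MMP-14 activates the MMP-2 proenzyme. ADAMTS-1 and ADAMTS-4 cut the lecticans, the chondroitin sulfate proteoglycans that fill the brain matrix and surround neurons.

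Levels are given as CPM, the counts of a gene scaled to a common library size by the TMM method. Because the library kit reads the 3′ end of each transcript, a gene's count depends little on its length, and levels are compared between genes on that basis only. A gene was called where the adjusted p of edgeR's quasi-likelihood test was below 0.01 and the log2 fold change was beyond 0.58 in either direction. In whole tissue, fewer cells of a type and less RNA per cell cannot be told apart.

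All 12 neuron markers, among them the cortical gene Tbr1, were detected in each of the 11 groups. The 8 striatal markers, led by Ppp1r1b, were all detected in sham at 3 h, 12 h and 24 h, and all but Drd2 in the other 8 groups, with sums that ran from 158 to 4087 CPM over the 48 libraries, the highest in MCAO 24 h replicate D. Several MCAO libraries differed from the others of their group in marker sums. MCAO day 3 replicate A was the lowest of its group in microglial and peripheral myeloid markers, with 780.5 CPM for the 11 microglial markers where the group reached 3205 CPM and the day 3 sham libraries held 349 to 445 CPM. Its 11 peripheral myeloid markers summed to 94.0 CPM, against a group median of 413 CPM and at most 73.9 CPM in day 3 sham. MCAO day 7 replicate C held 5745 CPM of the 10 fibroblast markers, against a group median of 459.7 CPM, and 4615 CPM of the peripheral myeloid markers, against a group median of 275 CPM. Granulocyte markers summed to 1739.6 CPM in MCAO 12 h replicate E (group median 180.0 CPM) and to 718 CPM in MCAO day 3 replicate C (group median 23.5 CPM).

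Against sham, every called member was higher after MCAO and none was lower. At 3 h edgeR called 0 of 10 members (4 had an unadjusted p under 0.05, as did 8.45% of all genes, and DESeq2 called Adamts1 and Mmp19), where 0.0901% of all genes were called higher and 0.02% lower. At 12 h and at 24 h Timp1 and Adamts1 were called, 2 of 10 each, beside 0.346% of all genes called higher and 0.0651% lower at 12 h, and 0.0801% higher and 0.01% lower at 24 h. At day 3 Timp1, Adamts1 and Mmp14 were called, 3 of 10, beside 3.76% of all genes higher and 0.26% lower. At day 7 Mmp14 and Mmp12 were called, 2 of 10, beside 2.07% higher and 1.43% lower. The median log2 fold change of the 10 members was 1.15 at 3 h (0.46 with the 3 genes absent from sham, Mmp3, Mmp12 and Mmp19, set against 3 counts over the sham group), 1.49 at 12 h, 1.85 at 24 h, 2.39 at day 3 and 2.26 at day 7, where the median of all genes lay between 0 and 0.06. Without MCAO day 3 replicate A the day 3 count became 6, with Mmp3, Mmp12 and Mmp19 added, where 6.76% of all genes were called in either direction, and the median 2.62. Without MCAO day 7 replicate C the day 7 count became 1, Mmp14, where 1.42% of all genes were called, and the median 1.24. Mmp3 held 0 and Mmp12 2 reads in the sham and control libraries together, so both passed the count filter through their MCAO reads. Their tests and calls, here and below, are given as a description.

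**Figure D1:**
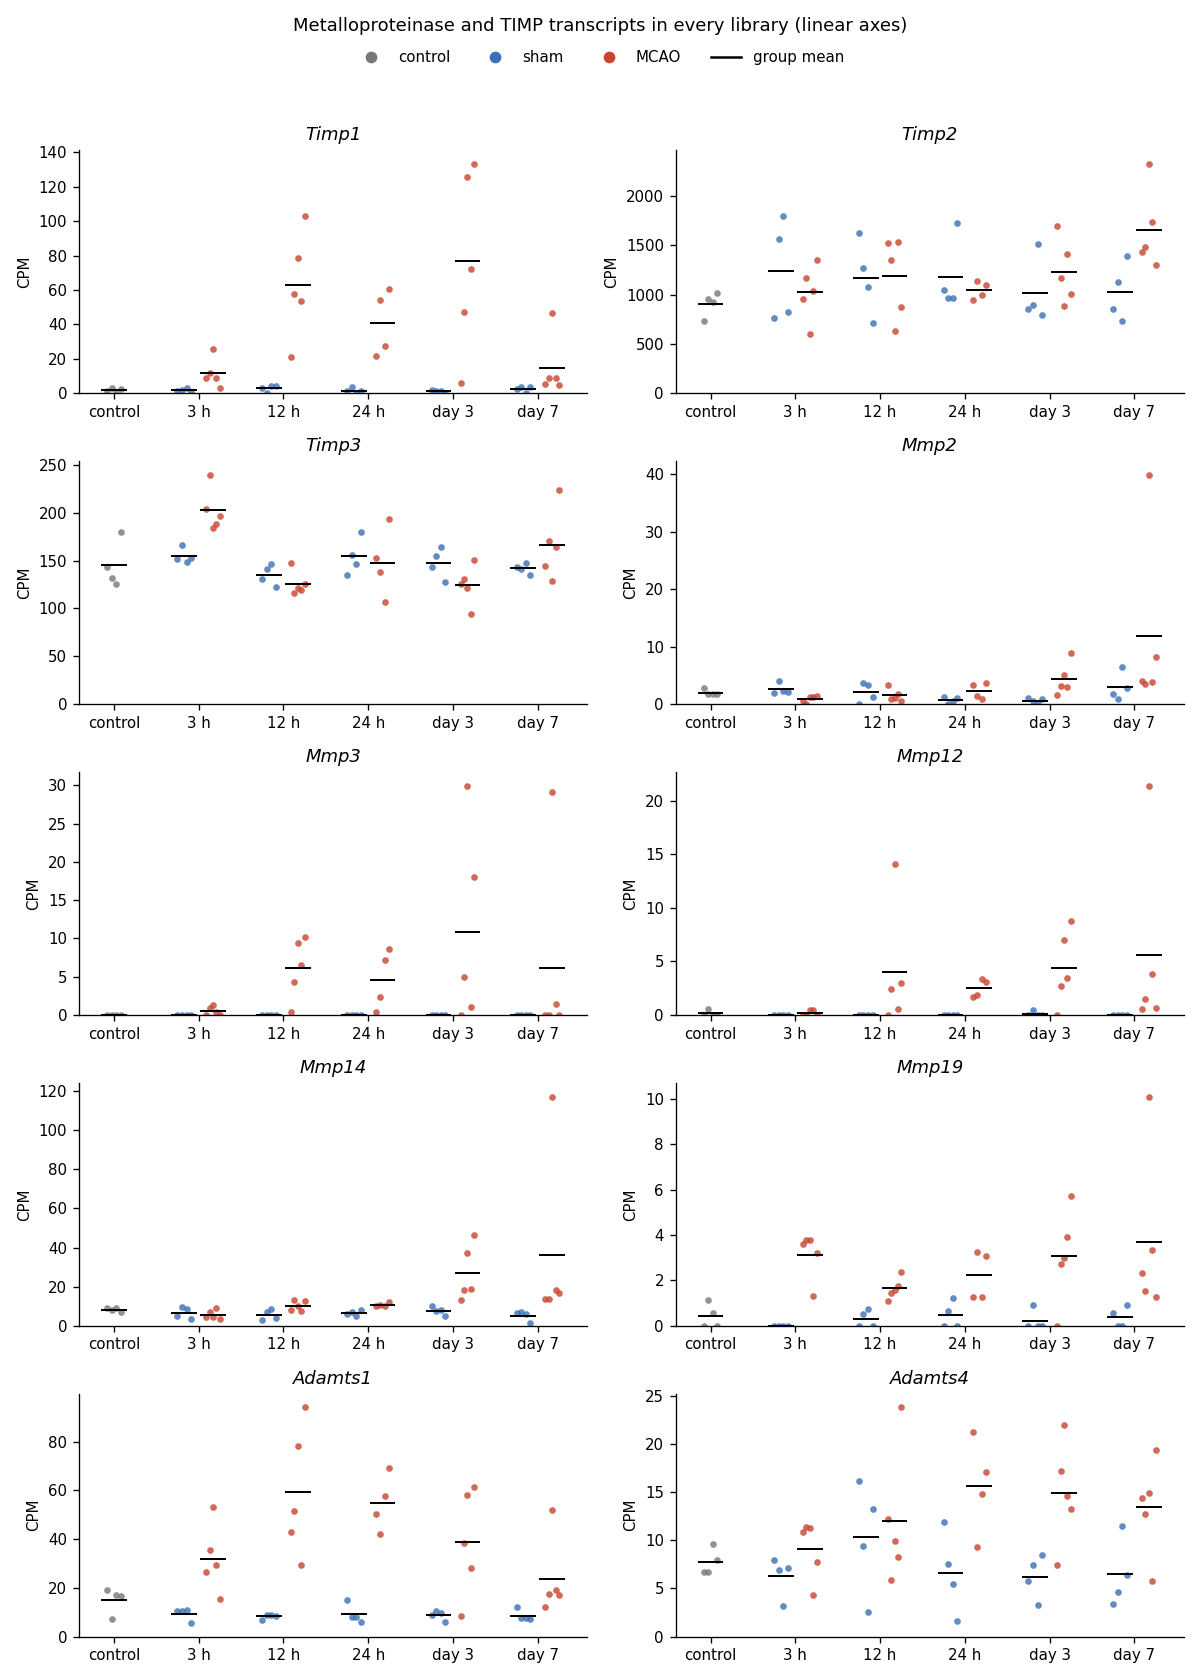
Level of each of the 10 genes in every library, in CPM on linear axes that differ between panels, for control (gray), sham (blue) and MCAO (red) by time after surgery, with a black bar at each group mean. All MCAO libraries lie above sham for Timp1 at all 5 times and for Mmp14 from 24 h on, while Timp2 overlaps sham at all 5 times.

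Timp1, the inducible and secreted inhibitor, showed the largest fitted fold changes of the 3 TIMP genes, from far lower levels in sham than Timp2 and Timp3. It is at chrX:20870166-20874735 on the forward strand (GRCm38), inside an intron of the synapsin gene Syn1 on the opposite strand, with no shared exon. Across the 24 sham and control libraries it never passed 4.44 CPM, and 4 of them held no read. At 3 h the MCAO libraries A to E measured 9.04, 11.8, 25.6, 8.62 and 3.19 CPM and the sham libraries A to D 1.19, 1.73, 3.14 and 0.545 CPM. All 5 MCAO libraries were above all 4 sham libraries, although replicate E only by a narrow margin, and the difference was not called (log2 fold change 2.77 ± 0.82 (SE), adjusted p = 0.162). At 12 h the MCAO libraries measured 21.1, 57.8, 78.8, 53.5 and 103 CPM. Sham libraries of that time measured 3.35, 0, 4.44 and 4.29 CPM, so the groups were far apart (log2 fold change 4.28 ± 0.69 (SE), adjusted p = 0.000259). At 24 h the MCAO libraries A to D held 21.7, 54.2, 27.5 and 60.5 CPM against 1.19, 3.79, 0 and 1.57 CPM in sham. The groups again did not overlap, and the difference was called (log2 fold change 4.60 ± 0.82 (SE), adjusted p = 0.00184), but the call was lost when sham replicate A, C or D or MCAO replicate D was left out.

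Timp1 reached its highest mean at day 3, where MCAO libraries measured 5.87, 47.4, 126, 72.3 and 133 CPM and sham libraries 1.81, 1.38, 1.40 and 0.468 CPM. Replicate A was the lowest by far but still above every sham library (log2 fold change 5.83 ± 0.78 (SE), adjusted p = 1.04e-06), and without it the log2 fold change was 6.12. At day 7 the MCAO libraries measured 5.19, 9.16, 46.4, 9.12 and 5.01 CPM and the sham libraries 2.29, 3.73, 0 and 3.65 CPM. Replicate C was the highest, and the other 4 lay between 5.01 and 9.16 CPM, near day 3 replicate A and still above every sham library. The difference was not called (log2 fold change 2.54 ± 0.77 (SE), adjusted p = 0.0271), and without replicate C the log2 fold change fell to 1.49 (adjusted p = 0.274). Ordered by mean, the MCAO groups ran day 3 (76.9 ± 53.6 (SD, n = 5)), 12 h (62.8 ± 30.5 (SD, n = 5)), 24 h (41.0 ± 19.2 (SD, n = 4)), day 7 (15.0 ± 17.7 (SD, n = 5)) and 3 h (11.6 ± 8.40 (SD, n = 5)) CPM, and each group overlapped the next. The place of day 7 rested on replicate C, without which its mean was 7.12 CPM, below that of 3 h.

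Timp2, which in the brain is made by neurons and glia alike, was the most abundant member by far. Its control level was 905 ± 123 (SD, n = 4) CPM, about 1161 CPM over all 48 libraries, and it was never called against sham. Single groups were wide: sham 3 h libraries measured 758, 1563, 1792 and 823 CPM and MCAO 3 h libraries 955, 1173, 597, 1037 and 1353 CPM, which overlapped. At day 7 the MCAO libraries measured 1435, 1479, 2321, 1733 and 1301 CPM and the sham libraries 858, 1127, 729 and 1389 CPM. There 4 of 5 MCAO libraries were above all sham libraries (log2 fold change 0.69 ± 0.26 (SE), adjusted p = 0.0888), a difference that did not pass the test.

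Timp3, the TIMP that binds to the matrix itself, varied within a narrow band of 94.2 to 239.6 CPM over all libraries. At 3 h all 5 MCAO libraries, at 204, 239.6, 185, 189 and 196 CPM, were above all 4 sham libraries, at 151, 166, 149 and 153 CPM. The step was small and not called (log2 fold change 0.39 ± 0.14 (SE), adjusted p = 0.386). By 12 h the MCAO libraries measured 148, 116, 122, 119 and 126 CPM, across the sham range of 122 to 146 CPM. The fall between MCAO at 3 h and MCAO at 12 h was the single call among the 10 members between successive MCAO times (log2 fold change -0.68 ± 0.14 (SE), adjusted p = 0.00404), where 0.376% of all genes were called. It was lost when MCAO 3 h replicate A or B or MCAO 12 h replicate B, D or E was left out and when both groups were fitted alone, and 3 h sham libraries were themselves at 155 ± 7.84 CPM against 135 ± 10.9 CPM at 12 h. The 3′ end of Timp3 overlaps an exon of Syn3 on the opposite strand, and whether counting used the strand is not given in the sources used here.

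Together with Timp4, the TIMP genes gave 1077 ± 135 CPM in control (SD, n = 4) and 1858 ± 391 CPM in MCAO at day 7 (SD, n = 5). Sham gave 1424 ± 518 CPM at 3 h and 1361 ± 390 CPM at 24 h, where MCAO gave 1259 ± 287 and 1259 ± 125 CPM. At 12 h, day 3 and day 7 sham gave 1346, 1181 and 1197 CPM and MCAO 1397, 1469 and 1858 CPM. In control tissue Timp2 held 83.9 ± 2.38%, Timp3 13.6 ± 2.10%, Timp4 2.35 ± 0.355% and Timp1 0.154 ± 0.127% of these reads. The share of Timp1 was 1.11 ± 1.14% in MCAO at 3 h, 5.28 ± 3.67% at 12 h, 3.17 ± 1.21% at 24 h, 5.82 ± 4.50% at day 3 and 0.702 ± 0.648% at day 7. The highest share, 10.8%, was in MCAO day 3 replicate C. Without replicate C of the same time the mean share was 0.617 ± 0.281% in MCAO at 3 h and 0.415 ± 0.111% at day 7. Timp2 held at least 72.2% of the TIMP reads in every library.

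**Figure D2:**
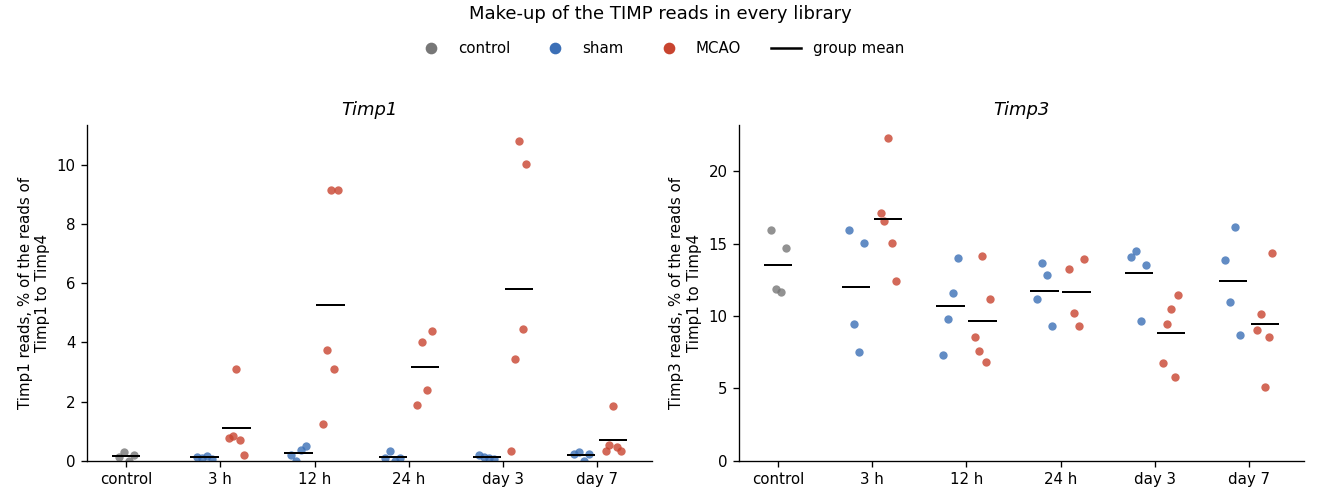
Share of Timp1 (left) and Timp3 (right) in the summed reads of Timp1, Timp2, Timp3 and Timp4, in percent, for each control (gray), sham (blue) and MCAO (red) library, with a black bar at each group mean. Timp1 stays below 0.5% in all sham and control libraries and reaches 10.8% in a day 3 MCAO library.

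Mmp3 (stromelysin-1), which cuts matrix proteins and the proenzymes of other metalloproteinases, was read only after MCAO. All 20 sham and all 4 control libraries held 0 reads, which over the 4 libraries of a sham group allows a level of up to 0.326 to 0.440 CPM. After MCAO 18 of 24 libraries held reads, 265 in total. The 12 h MCAO libraries measured 0.371, 4.37, 9.39, 6.47 and 10.1 CPM, at least 16.7-fold above sham. At 24 h they measured 0.425, 2.34, 7.20 and 8.56 CPM, at least 9.90-fold above sham. At day 3 the MCAO libraries measured 0, 4.97, 30.0, 0.977 and 18.1 CPM, with replicates C and E high, B between, D low and A at 0. At day 7 replicate C with 29.2 CPM and replicate D with 1.44 CPM held reads and the other 3 did not. Mmp3 was not called at any time (adjusted p = 0.109 at 12 h, 0.378 at 24 h, 0.0137 at day 3 and 0.0474 at day 7), and without MCAO day 3 replicate A it was called at day 3 (adjusted p = 0.00418). Without MCAO day 7 replicate C its adjusted p at day 7 was 0.505. Since Mmp3 passed the count filter through its MCAO reads alone, these tests are given as a description.

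Mmp12 (macrophage elastase), a protease known from macrophages, was nearly absent without injury, with 1 read in the 20 sham libraries and 1 in the 4 control libraries. The 12 h MCAO libraries measured 0, 2.43, 14.1, 0.588 and 2.98 CPM against 0 in all 4 sham libraries, at least 11.3-fold higher in the mean, which replicate C dominated (at least 4.05-fold without it). At 24 h they measured 1.70, 1.87, 3.39 and 3.06 CPM, all above the 4 sham libraries at 0. At day 3 they measured 0, 2.71, 6.99, 3.42 and 8.81 CPM. A ratio of 41.5 to sham at day 3 had a counting interval of 7.10 to 1676, since sham held a single read. At day 7 all 5 MCAO libraries held reads (0.577, 1.53, 21.4, 3.84 and 0.626 CPM) and no sham library did, at least 14.3-fold higher, and this was the time at which Mmp12 was called (adjusted p = 0.00811). The call and the bound rested on replicate C, which held 36 of the 49 reads and without which the adjusted p was 0.0718 and the level at least 4.65-fold higher, and the call was also lost when any 1 of the 4 sham libraries was left out or the day 7 sham and MCAO libraries were fitted alone. Mmp12 too passed the count filter through its MCAO reads, so its tests are given as a description.

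The start sites of Mmp3 and Mmp12 are shown because both genes went from near 0 to measurable reads and both carry the AP-1 letters, the binding motif of Fos and Jun proteins, at almost the same distance from the start. The windows run from 250 bases before to 50 after the start in RefSeq on GRCm38.p6, forward strand, chr9:7445572-7445871 for Mmp3 and chr9:7347124-7347423 for Mmp12, with capitals at TGANTCA, searched on both strands. The window of Timp1, chrX:20869916-20870215, forward strand, is shown as the inhibitor called at 12 h, 24 h and day 3. It has capitals at ACGTG, the core of the hypoxia response element, and no exact match of TGANTCA. Only exact matches were searched, so near forms of the AP-1 letters, such as tgagtaa in the Timp1 window, are not marked. Their absence is therefore not shown for any window.
Mmp3: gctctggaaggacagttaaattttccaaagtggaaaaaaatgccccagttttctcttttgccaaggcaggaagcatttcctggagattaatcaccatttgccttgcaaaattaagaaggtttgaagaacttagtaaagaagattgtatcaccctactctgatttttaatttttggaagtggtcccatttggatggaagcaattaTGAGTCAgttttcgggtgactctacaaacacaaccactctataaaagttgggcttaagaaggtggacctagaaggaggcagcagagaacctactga
Mmp12: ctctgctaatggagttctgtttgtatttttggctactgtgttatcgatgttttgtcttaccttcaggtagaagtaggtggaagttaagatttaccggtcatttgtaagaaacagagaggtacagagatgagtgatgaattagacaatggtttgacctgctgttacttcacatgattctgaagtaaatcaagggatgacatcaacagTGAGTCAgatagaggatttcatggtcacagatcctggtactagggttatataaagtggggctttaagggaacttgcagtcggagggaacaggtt
Timp1: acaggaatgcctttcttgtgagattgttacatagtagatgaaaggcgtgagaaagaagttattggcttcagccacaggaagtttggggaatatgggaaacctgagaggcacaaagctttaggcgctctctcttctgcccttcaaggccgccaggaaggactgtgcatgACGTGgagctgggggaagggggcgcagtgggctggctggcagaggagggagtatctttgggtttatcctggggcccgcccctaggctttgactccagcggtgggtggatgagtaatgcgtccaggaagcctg
In Mmp3 the motif begins 46 bases before the start and in Mmp12 44 bases before it. TGANTCA occurred in 7.81% of the 32851 promoter windows of RefSeq and ACGTG in 19.6%. Windows were held for 7 of the 10 members. Mmp14 also carried ACGTG, on the reverse strand, 48 bases before its start, the other window of Mmp12 and those of Timp2, Timp3 and Adamts1 carried neither, and the STAT letters TTCNNNGAA, in 8.30% of all windows, were in none of them. Mmp2, Mmp19 and Adamts4 had no window in the table. A match of letters is a description of the sequence.

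Mmp19, a secreted protease of basement membrane proteins, had reads in all 5 MCAO libraries at 3 h. At 3 h its MCAO libraries held 6, 8, 9, 3 and 7 reads (3.62, 3.78, 3.78, 1.29 and 3.19 CPM) and the 4 sham libraries none, at least 8.58-fold higher. The adjusted p was 0.0179 in edgeR, short of the call, and DESeq2 called it. Levels at 12 h were 1.11, 1.46, 1.56, 1.76 and 2.38 CPM in MCAO and 0, 0.521, 0.739 and 0 CPM in sham, a ratio of 4.76 with a counting interval of 1.36 to 25.5. All MCAO libraries were above all sham libraries at 3 h, 12 h, 24 h and day 7, and 4 of 5 at day 3, where replicate A was at 0. At day 3 the MCAO libraries measured 0, 2.71, 3.00, 3.91 and 5.73 CPM (adjusted p = 0.0132, and 0.00252 without replicate A). At day 7 they measured 2.31, 1.53, 10.1, 3.36 and 1.25 CPM (adjusted p = 0.0223). All of these levels rest on at most 17 reads a library, and the 3′ end of Mmp19 overlaps Tmem198b on the opposite strand.

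Mmp2 (gelatinase A), made constantly in many tissues and activated at the cell surface, stayed under 9 CPM in every library but MCAO day 7 replicate C. At 3 h the MCAO libraries, at 0.603, 0, 1.26, 1.29 and 1.37 CPM, were all below the sham libraries, at 1.98, 4.03, 2.24 and 2.18 CPM, on 0 to 7 reads a library (log2 fold change -1.41 ± 0.78 (SE), adjusted p = 0.649). At day 3 the MCAO libraries, at 1.60, 3.16, 4.99, 2.93 and 8.81 CPM, were all above the sham libraries, at 1.09, 0.462, 0 and 0.937 CPM (log2 fold change 2.64 ± 0.80 (SE), adjusted p = 0.0287). Neither passed the test. At day 7 the MCAO libraries measured 4.04, 3.56, 39.9, 3.84 and 8.14 CPM and the sham libraries 1.72, 0.933, 6.54 and 2.74 CPM, which overlapped. The day 7 log2 fold change of 1.98 became 0.69 without replicate C.

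Mmp14 (MT1-MMP), the membrane-anchored collagenase that also activates MMP-2, was the most abundant metalloproteinase of the 5 at rest, with 8.17 ± 1.02 (SD, n = 4) CPM in control. Its MCAO levels stayed near sham at 3 h (-0.23 ± 0.51 on the log2 scale) and were not called at 12 h (0.87 ± 0.50) or 24 h (0.74 ± 0.53, all 4 MCAO libraries above all 4 sham libraries). At day 3 the MCAO libraries measured 13.3, 18.5, 37.0, 18.6 and 46.3 CPM and the sham libraries 10.2, 7.39, 7.94 and 5.15 CPM. The groups did not overlap, and Mmp14 was called (log2 fold change 1.79 ± 0.46 (SE), adjusted p = 0.00802). The alternatives under which this day 3 call was lost include those in which any 1 sham library or MCAO replicate C or E was left out and scaling by the ERCC spike-ins. At day 7 the MCAO libraries measured 13.8, 13.7, 117, 18.2 and 16.9 CPM and the sham libraries 6.29, 7.00, 5.996 and 1.37 CPM. Replicate C stood far above the rest, yet all 5 were above sham (log2 fold change 2.79 ± 0.49 (SE), adjusted p = 0.000208), and the call held without replicate C with a log2 fold change of 1.59 (adjusted p = 0.00812), but not when the day 7 sham and MCAO libraries were fitted alone. Mmp14 is at chr14:54431612-54445364 on the forward strand.

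Added up, the 5 metalloproteinases gave 10.7 ± 1.44 CPM in control and 10.4 ± 2.13 CPM in MCAO at 3 h, then 23.6 ± 8.97 at 12 h, 22.5 ± 5.88 at 24 h, 49.3 ± 33.1 at day 3 and 63.3 ± 86.4 at day 7 (± SD), with sham means between 7.58 and 9.29 CPM. The day 7 sum rested on replicate C, and without it was 24.7 ± 5.01 CPM (SD, n = 4). Without replicate A the day 3 sum was 57.9 ± 31.2 CPM. The sum holds members only and is not the metalloproteinase total of the tissue. Over the 48 libraries Mmp17, Mmp16 and Mmp24, which are not members, had 11057, 6562 and 2790 reads, and Mmp14 had 1170. The make-up of the reads of the 5 members is given as a description. Mmp14 held 76.5 ± 4.72% of them in control, and at 3 h after MCAO 52.9 ± 13.5% with 31.9 ± 13.0% for Mmp19. Mmp3 held 23.9 ± 13.5% at 12 h, 18.5 ± 13.6% at 24 h, 15.2 ± 14.7% at day 3 and 3.62 ± 5.83% at day 7, the last 2 becoming 9.84 ± 9.79% and 1.17 ± 2.34% without replicate C of each time. These shares come from 14 to 29 reads a library at 3 h and up to 366 at day 7.

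Adamts1, a lectican-cleaving protease with antiangiogenic activity, was called at 12 h, 24 h and day 3. It is at chr16:85793827-85803113 on the reverse strand. The 24 sham and control libraries spanned 5.45 to 19.0 CPM. At 3 h the MCAO libraries measured 26.5, 35.4, 53.3, 29.3 and 15.5 CPM and the sham libraries 10.7, 10.4, 10.8 and 5.45 CPM. All MCAO libraries were higher, but edgeR did not call the difference (log2 fold change 1.77 ± 0.40 (SE), adjusted p = 0.0276). At 12 h the MCAO libraries measured 43.0, 51.4, 78.2, 29.4 and 94.1 CPM and the sham libraries 6.70, 8.86, 8.87 and 8.57 CPM. This was its highest mean, with no overlap (log2 fold change 2.82 ± 0.41 (SE), adjusted p = 5.60e-05). At 24 h they measured 50.1, 42.1, 57.6 and 69.1 CPM in MCAO and 14.8, 8.22, 7.93 and 5.77 CPM in sham (log2 fold change 2.57 ± 0.42 (SE), adjusted p = 0.000667), a call lost without sham replicate D. At day 3 the MCAO libraries measured 8.54, 38.4, 57.9, 28.3 and 61.3 CPM and the sham libraries 8.70, 10.6, 9.81 and 6.09 CPM. Replicate A lay inside the sham range and the other 4 above it (log2 fold change 2.14 ± 0.40 (SE), adjusted p = 0.000225). At day 7 the MCAO libraries, at 12.1, 17.3, 51.8, 19.2 and 16.9 CPM, were above the sham libraries, at 12.0, 7.47, 7.63 and 7.30 CPM, without passing edgeR's test (log2 fold change 1.45 ± 0.42 (SE), adjusted p = 0.0209, and 0.93 without replicate C). DESeq2 called it there.

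Adamts4 (aggrecanase-1), the other lectican-cleaving member, was not called at any time. At 24 h the MCAO libraries measured 21.2, 9.35, 14.8 and 17.1 CPM and the sham libraries 11.9, 7.58, 5.49 and 1.57 CPM, which overlapped (log2 fold change 1.25 ± 0.46 (SE), adjusted p = 0.334). At day 3 the values were 7.47, 17.2, 22.0, 14.6 and 13.2 CPM in MCAO and 5.80, 7.39, 3.27 and 8.43 CPM in sham, with only replicate A of the MCAO libraries inside the sham range (log2 fold change 1.26 ± 0.43 (SE), adjusted p = 0.0572).

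**Figure D3:**
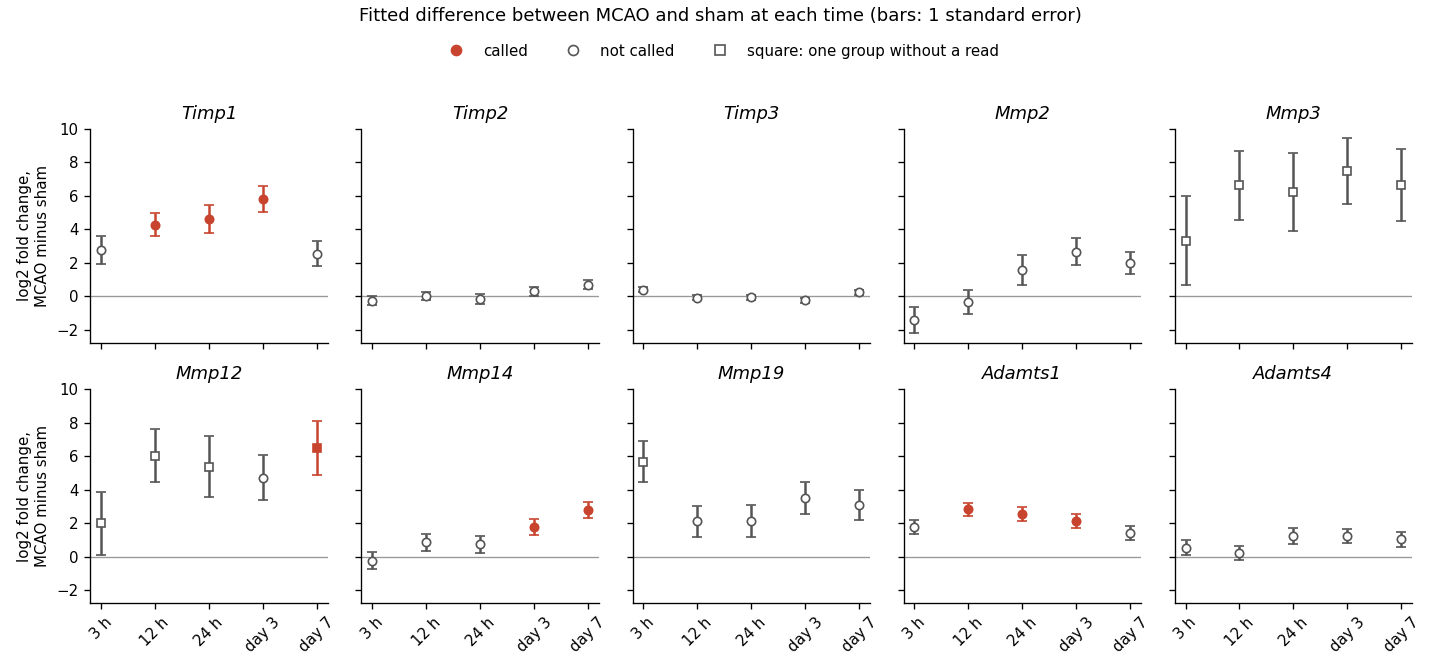
Fitted log2 fold change of MCAO over sham at each time for the 10 genes, with bars of 1 standard error, filled red where called and open gray where not, and squares where 1 of the groups held no read, for which the fitted value is no measure of size. Timp1 peaks at day 3 with 5.83, Adamts1 at 12 h with 2.82 and Mmp14 at day 7 with 2.79, which without MCAO day 7 replicate C was 1.59, below its day 3 value of 1.79.

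The plot of each MCAO library against its shams shows how evenly the members departed from sham. Timp1 was above the sham mean in all 24 MCAO libraries and Adamts1 in all but day 3 replicate A, whereas 6 of the 24 held no read of Mmp3 and 5 no read of Mmp12. With the 11 groups of each gene ordered by mean, all libraries of a group lay above all of the next in 2 places, Mmp12 in MCAO at 24 h above MCAO at 3 h and Mmp14 in MCAO at day 3 above MCAO at 24 h, and all other neighbors overlapped. Without MCAO day 7 replicate C the day 7 MCAO group was the one that cleared the next, for Mmp12 (MCAO at 3 h), Mmp14 (MCAO at 24 h) and Timp1 (sham at 12 h). Over all 48 libraries the log2(CPM + 1) levels of Timp1 and Adamts1 had a Pearson correlation of 0.87, Mmp3 and Mmp12 of 0.88, Timp1 and Mmp3 of 0.84, and Timp1 and Timp2 of 0.10. These are descriptions over libraries that share groups and injury.

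**Figure D4:**
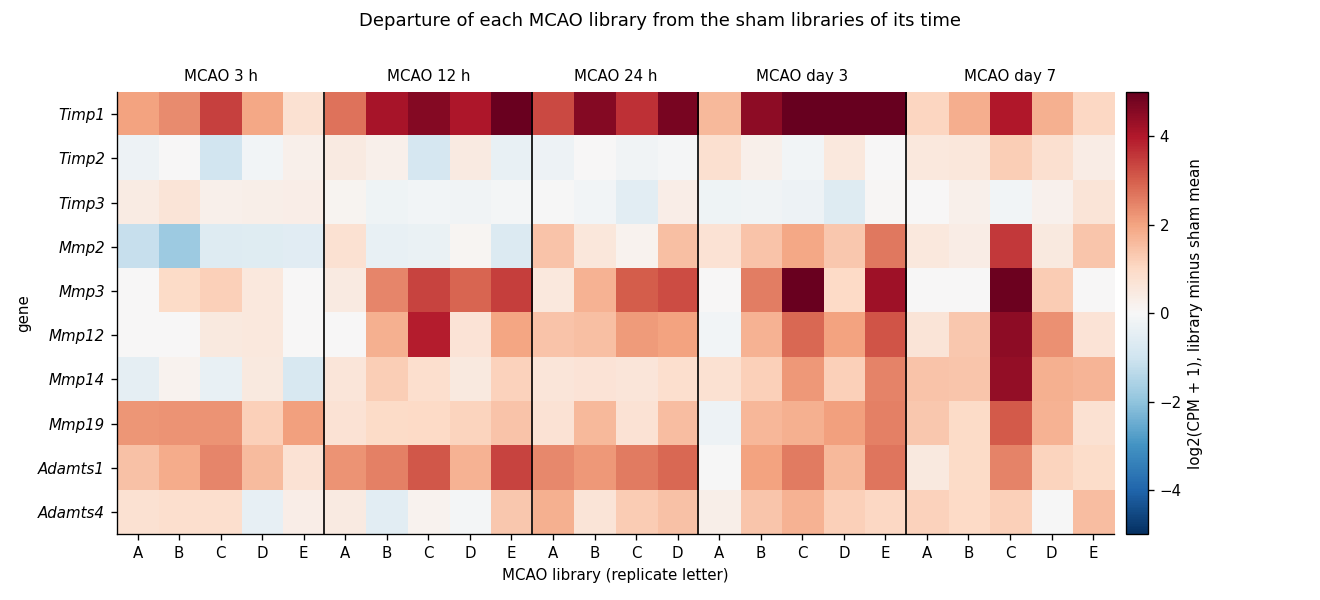
Difference between each of the 24 MCAO libraries (columns, by time and replicate letter) and the mean of the sham libraries of the same time, in log2(CPM + 1), for the 10 genes (rows), on a color scale that ends at 5 in either direction. Day 3 replicate A departs less from sham than the other day 3 libraries for Timp1, Mmp14 and Adamts1, and day 7 replicate C is the darkest of its time for Timp1, Mmp2, Mmp3, Mmp12 and Mmp14.

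Against the control libraries, which serve all 5 times and thus tie these comparisons to each other, edgeR called 0 members at 3 h (4 with an unadjusted p under 0.05, as had 9.15% of all genes, and 0 by DESeq2, with 0.13% of all genes called), Timp1 and Adamts1 at 12 h (0.856%) and at 24 h (0.28%), Timp1 at day 3 (3.1%) and Mmp14 at day 7 (1.5%). The log2 fold change of Timp1 over control was 5.16 at 12 h (adjusted p = 4.93e-05), 4.54 at 24 h (adjusted p = 0.000801) and 5.46 at day 3 (adjusted p = 4.84e-06). The log2 fold change of Adamts1 over control was 1.98 at 12 h and 1.86 at 24 h, with 14.9 ± 5.20 (SD, n = 4) CPM in control beside 8.25 ± 1.04 (SD, n = 4) CPM in sham at 12 h. Its 24 h call over control was lost with any 1 of the 8 libraries left out, and the 12 h call without control replicate B. Mmp14 over control at day 7 had a log2 fold change of 2.12 (adjusted p = 0.00431) and was not called without MCAO replicate C or any 1 control library, nor when its groups were fitted alone. Without MCAO day 3 replicate A, Adamts1, Mmp14 and Mmp3 were also called over control at day 3, where 5.39% of all genes were called.

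Sham surgery alone moved no member past the test. In sham against control edgeR and DESeq2 called 0 of 10 at each of the 5 times and no member had an unadjusted p under 0.05 (3.66% of all genes had one at day 3, the lowest share, and 8.03% at day 7, the highest), where the share of all genes called was 0% at 3 h, 0.0351% at 12 h, 0.01% at 24 h, 0% at day 3 and 0% at day 7.

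Whether the response differed between times was tested as the MCAO-over-sham difference of a time minus that of another. EdgeR called 0 members in all 6 such tests, where it called 0.01% of all genes for 12 h against 3 h, 0.01% for 24 h against 12 h, 0.01% for day 3 against 24 h, 0% for day 7 against day 3, 0.26% for day 3 against 3 h and 0.16% for day 7 against 3 h. Members with an unadjusted p under 0.05 numbered 2, 0, 0, 2, 4 and 3 of 10 in that order, where 7.12, 5.08, 8.82, 16.2, 13.8 and 15.7% of all genes had one, and DESeq2 called only Mmp14, for day 7 against 3 h. For Mmp14 edgeR gave a difference of 3.02 ± 0.71 (SE) on the log2 scale (adjusted p = 0.0227). Its day 7 part was smaller without MCAO day 7 replicate C, as given above for Mmp14. Mmp2 differed by 4.05 ± 1.13 between day 3 and 3 h (adjusted p = 0.0571). The change of Timp1 from day 3 to day 7 was -3.29 ± 1.24 relative to sham (adjusted p = 0.185). Between successive MCAO times themselves, Timp3 was the call named above for 12 h against 3 h. There 5 members and 14.4% of all genes had an unadjusted p under 0.05. EdgeR called 0 members for 24 h against 12 h (0.015% of all genes called, 0 members and 7.08% of all genes at an unadjusted p under 0.05), 0 for day 3 against 24 h (0.486% called, 1 member and 15.2%) and 0 for day 7 against day 3 (0.0351% called, 4 members and 11.6%), with none by DESeq2 in these 3. Timp1 differed by 2.40 from MCAO 3 h to MCAO 12 h (adjusted p = 0.0104) without reaching the threshold.

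The rest of the system was described from 7 lists of companion genes. Of the 12 other matrix metalloproteinases tested (of 18), Mmp9 was called higher at day 3 and Mmp13 at day 7, and Mmp16 lower at day 3. Mmp9 (gelatinase B), which granulocytes carry in their granules, measured 22.6 ± 33.2 (SD, n = 5) CPM in MCAO at day 3 and 2.66 ± 1.32 (SD, n = 4) CPM in sham (log2 fold change 3.04 ± 0.74 (SE), adjusted p = 0.00493). Replicate C held 79.9 CPM, 160 of the group's 233 reads, and the group median was 3.61 CPM. Replicates C and E alone exceeded every sham library, and C also held the highest granulocyte marker sum of the group, in which Mmp9 is counted. The call was lost without replicate C or E and under 9 of 16 alternatives in all. At 24 h, where Mmp9 was not called, all MCAO libraries (5.52 to 12.8 CPM) lay above all sham libraries (at most 2.97 CPM). At day 7, also without a call, all MCAO libraries but replicate D (0.480 CPM) lay above all sham libraries (at most 1.72 CPM). At 3 h and 12 h the MCAO and sham libraries overlapped. Mmp13 (collagenase-3) was at least 28.8-fold above a sham without reads at day 7, and MCAO replicate C with 56.5 CPM carried it (adjusted p = 0.00595, and without that library 0.273 and at least 1.43-fold). Mmp13 passed the count filter through its MCAO reads, so its test is given as a description. Mmp16 (MT3-MMP), a membrane-bound protease of neural tissue, fell by 0.69 on the log2 scale at day 3 (52.3 ± 11.2 CPM against 84.5 ± 13.5 CPM, adjusted p = 0.00809), a call kept under 6 of 16 alternatives. At 3 h Mmp16 was not called, though all MCAO libraries (at most 68.9 CPM) lay below all sham libraries (at least 72.0 CPM). Its means in MCAO and sham were 78.3 and 70.3 CPM at 12 h, 56.3 and 64.5 CPM at 24 h, and 66.0 and 67.9 CPM at day 7. Of the 16 other ADAMTS genes tested (of 17), edgeR and DESeq2 called 0 at each of the 5 times, with 3, 2, 2, 4 and 5 of 16 at an unadjusted p under 0.05 from 3 h to day 7, beside 8.45, 14.6, 8.8, 21.6 and 23.5% of all genes.

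Among the 4 other inhibitors (Timp4, Reck, A2m and Tfpi2) A2m alone was called by edgeR. A2m, alpha-2-macroglobulin, a broad protease trap of plasma, measured 11.6 ± 6.67 CPM in MCAO at 12 h against 0.270 ± 0.312 CPM in sham, where sham held 2 reads, a ratio of 49.1 with a counting interval of 13.3 to 411 (adjusted p = 0.000922). It was also called at 24 h (log2 fold change 3.89 ± 0.78 (SE), adjusted p = 0.00985, kept under 6 of 15 alternatives), day 3 (log2 fold change 5.44 ± 0.78 (SE), adjusted p = 4.52e-06) and day 7 (log2 fold change 4.43 ± 0.85 (SE), adjusted p = 0.000540). Timp4 was not called by edgeR, though DESeq2 called it at day 3, with a log2 fold change of 0.75 at day 3 (adjusted p = 0.0168).

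Of the 8 catalytic ADAM genes tested (of 9), Adam8, a protease of activated leukocytes, was called higher at day 3 (log2 fold change 3.78 ± 0.84 (SE), adjusted p = 0.00198) and Adam17, the sheddase of tumor necrosis factor, at day 3 (log2 fold change 1.28 ± 0.28 (SE), adjusted p = 0.00127) and day 7 (log2 fold change 1.21 ± 0.29 (SE), adjusted p = 0.00453). Each of these 3 calls was kept under 12 of 16 alternatives. The Adam8 call was lost without MCAO day 3 replicate C or sham replicate A, B or C, and the day 3 call of Adam17 without MCAO replicate C or sham replicate D, with ERCC scaling and when its groups were fitted alone. Of 6 genes that activate proenzymes, the plasminogen activators Plau (log2 fold change 4.22 ± 1.05 (SE), adjusted p = 0.00692) and Plat (log2 fold change 2.35 ± 0.56 (SE), adjusted p = 0.00476) were called at day 7, kept under 11 and 10 of 16 alternatives. Without MCAO replicate C neither was called, at a log2 fold change of 1.86 for Plau (adjusted p = 0.295) and 2.31 for Plat (adjusted p = 0.0128). Of 4 partners and receptors, Cd63, the tetraspanin that binds TIMP-1 at the cell surface, was called at day 3 (507 ± 317 CPM against 98.5 ± 6.48 CPM, adjusted p = 1.14e-05) and day 7 (346 ± 310.3 CPM against 84.0 ± 25.7 CPM, adjusted p = 0.000220), and both calls held under all 16 alternatives. Without MCAO day 7 replicate C its day 7 level was 208 CPM and its log2 fold change 1.30, against 2.04 with it. Itgb1, an integrin subunit in the same complex, was called at day 3 (log2 fold change 1.33 ± 0.26 (SE), adjusted p = 0.000388), kept under 15 of 16 alternatives, and Lrp1, which clears TIMP and protease complexes, at day 7 (log2 fold change 0.69 ± 0.16 (SE), adjusted p = 0.00466), kept under 11 of 16. Of the 4 lecticans, the substrates of Adamts1 and Adamts4, Vcan was called at day 7 (log2 fold change 1.07 ± 0.26 (SE), adjusted p = 0.00612, kept under 9 of 16 alternatives) and Acan, Bcan and Ncan at no time. Without MCAO day 7 replicate C, only A2m and Cd63 of the companion genes remained called at day 7. Without MCAO day 3 replicate A, the day 3 calls stayed and Mmp8 and Furin joined them.

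**Figure D5:**
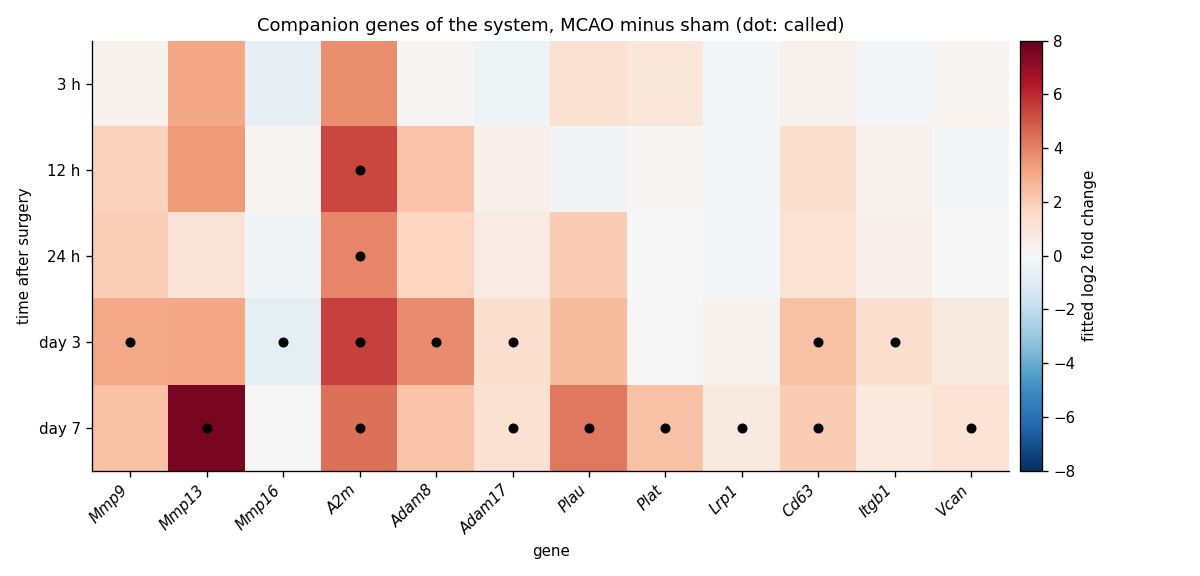
Fitted log2 fold change of MCAO over sham for the 12 companion genes that were called at some time, by time after surgery (rows), on a color scale that ends at 8 in either direction, with a black dot at each call. A2m carries dots from 12 h to day 7, and the other calls lie at day 3 and day 7.

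Position in the genome was not used to choose the members. Mmp3 and Mmp12 belong to a cluster of 10 matrix metalloproteinase genes at chr9:7272514-7699585 (GRCm38). There 6 genes had enough reads to be tested, some through their MCAO reads alone, since Mmp3, Mmp10 and Mmp27 held no sham read, so their counts are given as a description. At day 3 the 5 MCAO libraries together held 114 reads of Mmp3, 47 of Mmp12, 52 of Mmp8, 15 of Mmp13, 14 of Mmp10 and 8 of Mmp27, and the 4 sham libraries 0, 1, 0, 1, 0 and 0. Mmp1a, Mmp1b, Mmp20 and Mmp7 held 2, 0, 1 and 1 reads in all 48 libraries, Mmp1b being the gene whose exon overlaps Mmp12 on the opposite strand. Adamts1 lies 53059 bases from Adamts5, another aggrecanase, on chromosome 16. Adamts5 was not called at any time (log2 fold change 0.84 ± 0.56 at 12 h, where Adamts1 had 2.82).

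For the 8 members with a mean of at least 2 CPM, the most similar profiles over the 48 libraries were sought. The search used Pearson's r of log2(CPM + 1) over 13911 genes, from which the members themselves were left out. Timp1 was most like Tuba1c, an alpha-tubulin (r = 0.90), and Msn, moesin (r = 0.90). Adamts1 was most like Ctla2a (r = 0.88) and Stat3 (r = 0.87), and Mmp14 was most like Spp1, osteopontin (r = 0.89), and Cybb, the phagocyte oxidase subunit (r = 0.88). Mmp3 was most like Clec4d (r = 0.91) and Msr1 (r = 0.91), receptors of myeloid cells. Likeness was weaker for Mmp2 (Hexa and Mxra8, r = 0.74 and 0.73), Adamts4 (Neat1 and Ptpn6, r = 0.74 and 0.69), Timp2 (Nnat and Ptprz1, r = 0.81 and 0.79) and Timp3 (Grasp and Igsf3, r = 0.69 and 0.67). These values describe libraries that share the injury.

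Marker lists of other cells were summed beside the members, without a test. The 5 erythroid markers had a median sum of 429 CPM in MCAO at 3 h and 40.1 CPM in sham, with Hbb-bs the most abundant, and their median was higher after MCAO at every time. Of the 11 granulocyte markers, which include Mmp8 and Mmp9, all were detected in MCAO at 12 h with a median sum of 180.0 CPM and a highest of 1739.6 CPM, S100a8 leading. Sham tissue at 12 h detected 7 of them, with Ly6g, Retnlg, Cxcr2 and Ltf at 0 and a median sum of 4.86 CPM. At 3 h the granulocyte markers had a median sum of 34.5 CPM in MCAO and 5.22 CPM in sham. The peripheral myeloid markers, led by Lyz2, had a median sum of 92.9 CPM in MCAO at 12 h (sham 63.8, with Ccr2, Ly6c2, Plac8 and Chil3 among those at 0), 413 at day 3 (sham 66.1, Ly6c2 and Chil3 at 0) and 275 at day 7 (sham 59.9, Ly6c2, Plac8 and Chil3 among those at 0). The microglial markers, led by Cx3cr1 and all detected in each group, had a median sum of 2077 CPM in MCAO and 424 CPM in sham at day 3, and of 1402 and 552 CPM at day 7. The fibroblast markers, led by Col1a2 and all detected in each group, stood at 423 CPM in MCAO and 123 CPM in sham at day 3, and at 459.7 and 96.3 CPM at day 7. At 24 h the median sums in MCAO and sham were 783 and 453 CPM for microglial and 49.7 and 7.82 CPM for granulocyte markers. They were 132 and 72.8 CPM for peripheral myeloid and 209 and 127 CPM for fibroblast markers. The neuron markers had median sums in MCAO and sham of 8365 and 12303 CPM at day 3 and 10241 and 12580 CPM at day 7. Earlier medians in MCAO and sham were 11946.5 and 12048 CPM at 3 h, 10982 and 12220.5 CPM at 12 h, and 10752 and 14005 CPM at 24 h. The control median was 11532 CPM, and that of sham at 24 h was the highest of the 11 groups. The part of these marker lists in the results for the members was not tested.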

How the data were processed

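RNA of 48 brain samples was made into single-end libraries of transcript 3′ ends with 92 ERCC spike-in RNAs. The authors trimmed reads with Trimmomatic, removed ribosomal and mitochondrial reads with SortMeRNA, aligned them to GRCm38 with STAR 2.5.2b and counted them per gene with HTSeq on Gencode annotation. The strand setting is not given in the sources used here. The study's text counts the replicates as mice, with no fewer than the smallest group here, but the series' design text names fewer hemispheres per time than there are libraries, and the letters are not tied to animals. The labels were followed, and p-values measure the spread between these samples. What the authors deposited is 1 table of raw counts for each library. Lines that name no gene were left out of library sizes: reads in no feature (median 23.5%), ambiguous reads (0.400%) and reads aligned more than once (33.5%), each as a share of all listed alignments. No pair of libraries was identical. Symbols and positions came from Gencode vM21 (46488 of 46983 identifiers), promoters from RefSeq.

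Counts of genes with more than 10 in total were fitted in edgeR 4.0.16 (R 4.3.3) with TMM factors and the quasi-likelihood test, in 1 model of 11 groups and 25 comparisons, and p-values were adjusted over all 19970 genes by Benjamini-Hochberg. Folds against a group without reads are lower bounds against 3 counts over the group, and intervals of ratios (95%, exact) cover counting error only. The genes named were the 10 members, companion genes called in MCAO against sham, and most alike genes. The last were the 2 most alike genes outside the members, for each member at a mean of 2 CPM or more. Members and lists were chosen with earlier results of these data known. Alternatives were DESeq2 1.42.0, its size factors, other count filters, ERCC scaling, a replicate block, fits of only the groups compared, and leaving out each library. The model was tested on simulated data.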

Additional observations from a re-analysis of the deposited data

Results flagged for a closer look

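Of the 110 combinations of member and group, 87 could be examined for a library far from the others of its group, and 16 had one. The cut-offs are meant to flag about 1 in 20 by chance, a rate that was not checked for genes with few reads. MCAO day 7 replicate C accounted for 7 of them, as the highest library for Timp1 (46.4 CPM), Mmp2 (39.9 CPM), Mmp3 (29.2 CPM), Mmp12 (21.4 CPM), Mmp14 (117 CPM), Mmp19 (10.1 CPM) and Adamts1 (51.8 CPM). The same library held the highest sums of fibroblast, peripheral myeloid and microglial markers of its group. Mmp12 was high in MCAO 12 h replicate C at 14.1 CPM, and Mmp19 was low in MCAO 3 h replicate D at 1.29 CPM.

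In uninjured tissue Timp2 stood out in sham 24 h replicate D at 1721 CPM and in sham day 3 replicate C at 1510.3 CPM. Mmp2 was high in control replicate A at 2.79 CPM and in sham 3 h replicate B at 4.03 CPM, on 5 and 7 reads. Adamts1 was low in sham 3 h replicate D at 5.45 CPM and in sham 12 h replicate A at 6.70 CPM, and high in sham day 7 replicate A at 12.0 CPM.

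For Mmp2, every MCAO library lay below the sham mean at 3 h and above it at day 3 and day 7. The difference between the MCAO-over-sham changes was 4.05 on the log2 scale for day 3 against 3 h and 3.39 for day 7 against 3 h. EdgeR's adjusted p of 0.0571 and 0.0836 did not pass the threshold. The day 7 difference rested in part on MCAO day 7 replicate C, without which the day 7 change of Mmp2 was smaller, as given above.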

How the results depend on the processing

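Over the alternatives, 785 log2 fold changes of MCAO over sham were computed for the 10 members at 5 times. Of these, 731 kept their direction and side of the threshold, 20 gained a call, 20 lost a call and 14 changed sign. Sign changes were limited to values near 0. With ERCC scaling Timp2 at 12 h was -0.039 and Timp3 at 24 h 0.028. Leaving out each library gave -0.16 to 0.22 for Timp2 at 12 h, -0.89 to 0.017 for Mmp2 at 12 h, -0.16 to 0.51 for Adamts4 at 12 h, -0.25 to 0.079 for Timp2 at 24 h and -0.23 to 0.059 for Timp3 at 24 h. The cause was not tested.

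The share of all genes called in the same setting follows each number of members in parentheses. Against sham, the number of members called became 2 at 3 h with DESeq2 (0.29%) and 2 without a filter (0.218%), and 3 when only the groups compared were fitted (0.426%). It became 5 at day 3 (3.5%) and 5 at day 7 (3.76%) without a filter, 3 at day 7 with DESeq2 (5.49%), which added Adamts1, and 0 at day 7 with only the groups compared (2.51%). Against control it became 1 at 3 h with only the groups compared (0.926%) and 1 at 24 h with ERCC scaling (0.195%). At day 3 it became 3 with DESeq2 (4.31%), 4 without a filter (2.91%), 2 with the replicate block (2.47%) and 2 with only the groups compared (1.99%), and at day 7 it became 3 with DESeq2 (2.32%) and 3 without a filter (1.73%). The difference of day 7 against 3 h had 1 call with DESeq2 (0.876%) and 1 without a filter (0.437%). MCAO at 12 h against 3 h had 2 calls without a filter (0.636%) and 2 with the replicate block (0.456%), and MCAO at day 7 against day 3 had 1 without a filter (0.26%). Leaving out each library in turn gave 0 to 2 calls against sham at 24 h (0.03% to 0.105%), 2 to 6 at day 3 (2.17% to 6.76%) and 1 to 2 at day 7 (1.21% to 3.4%). Against control it gave 1 to 2 at 12 h (0.356% to 0.856%), 1 at 24 h (0.16% to 0.255%), 1 to 4 at day 3 (1.78% to 5.39%) and 0 to 1 at day 7 (0.411% to 1.57%). It gave 0 to 1 for the difference of day 7 against 3 h (0.025% to 0.275%), 0 to 2 for MCAO at 12 h against 3 h (0.14% to 0.541%) and 0 to 1 for day 7 against day 3 (0% to 0.526%).

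Replicate letters are not stated to pair the samples. Of 20 same-letter pairs of sham and MCAO, 8 deviated together with a correlation over 0.1 (range -0.296 to 0.166). The median correlation was 0.044 for same-letter and -0.002 for other pairs, which does not settle whether the letters pair samples. The replicate block was kept as an alternative only, under which Mmp14 was not called and Mmp3 was called against sham at day 3. Members under 2 CPM, Mmp12 and Mmp19, rest on few reads a library, and at this depth a level under about 0.3 to 0.4 CPM over a group could not be told from none.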

Other observations

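The 9 astrocyte markers, led by Slc1a2, were all detected in each group, with a median sum of 4929 CPM in MCAO and 4961 CPM in sham at day 3, and Slc1a2 itself measured 2017 ± 519.8 and 2875 ± 158 CPM (SD). The 9 oligodendrocyte markers, led by Mbp, had a median sum of 1611 CPM in MCAO and 2733 CPM in sham at 12 h. Their medians were higher in MCAO than in sham at 3 h (3006 and 2359 CPM), day 3 (3598 and 2909 CPM) and day 7 (3285 and 2131 CPM), and slightly lower at 24 h (2209.9 and 2367 CPM). The 6 markers of oligodendrocyte precursors, led by Bcas1 and sharing Pdgfra with the fibroblast list, had a median sum of 627 CPM in MCAO and 286 CPM in sham at day 3. The 9 endothelial markers, led by Flt1, stood at 519 and 353 CPM at day 3, and the 9 mural markers, led by Rgs5, at 238 and 186 CPM. Of the 7 T cell markers, led by Trbc2, 4 were detected in MCAO at day 7, where Cd3e, Cd3g and Cd8a were at 0 and Trbc2 measured 2.84 ± 2.13 CPM against 36.7 ± 6.86 CPM in sham. There 3 of the 7 were detected in sham, and the whole list summed to 15.9 ± 10.2 CPM in MCAO and 47.7 ± 7.12 CPM in sham, of which the markers other than Trbc2 made 13.11 ± 10.2 and 10.98 ± 6.28 CPM. The 8 choroid plexus markers, led by Ttr, summed to at most 56.1 CPM in operated mice and to 511 CPM in a control library. The 8 striatal markers, led by Ppp1r1b, had median sums between 481 CPM (sham at 3 h) and 1693 CPM (sham at 12 h).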
